A study of Mus musculus with 34 samples.

Results

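Fn1, Spp1, Vcan, Mmp8, Mmp9, Mmp12, Mmp13, Mmp14 and Timp2, 9 genes of matrix proteins and matrix remodeling, were followed among the 24475 genes of a bulk RNA-seq count table. The rows were found by matching Entrez Gene ID to gene symbol, and all 9 genes had a row and passed the filter on low counts in both model fits. The genes were chosen by earlier results of these data, in which their measured levels had been set side by side between the tumor monocytes of 2 tumor models and between 2 tumor supernatants. Both of those contrasts are therefore given as descriptions with no test. Every test that includes tumor monocytes or a supernatant group reuses libraries of those contrasts. Its p-value is therefore not independent of how the genes were chosen.

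Fibronectin (Fn1) is an adhesive glycoprotein that cells assemble into fibrils and bind through integrins. Osteopontin (Spp1) is a secreted phosphoprotein that binds integrins and CD44, and versican (Vcan) is a large chondroitin sulfate proteoglycan that binds hyaluronan. The matrix metalloproteinases are zinc-dependent endopeptidases made as inactive proenzymes: Mmp8 and Mmp13 are collagenases, Mmp9 is a gelatinase, Mmp12 is macrophage elastase, and Mmp14 is a membrane-anchored collagenase that also activates other proenzymes. Timp2 inhibits these enzymes and, bound to Mmp14, takes part in the activation of proMmp2. Tumor macrophages are known as a source of several of these proteins.

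The table held 34 libraries in 9 groups. From C57/Bl6 mice bearing MC38 (colon adenocarcinoma) or LLC (Lewis lung carcinoma) tumors came 6 groups of 4 libraries: macrophages sorted from either tumor, a monocyte population from either tumor, and splenic Ly6C+ monocytes from hosts of either tumor. The MC38 tumor monocytes, called TuMon1, were Ly6C+ CD88+ Sca1+. Those of LLC tumors, called TuMon2, were Ly6C+ CD88+ Sca1-. Bone marrow monocytes cultured with MC38 supernatant (3 libraries, labelled Ly6C+ CD88+ Sca1+), with LLC supernatant (3 libraries, labelled Ly6C+ CD88+ Sca1-) or untreated (4 libraries, labelled Ly6C+) made up the rest. Sca1 state and tumor model go together in these labels and cannot be told apart. The labels give neither age, sex, length of culture nor amount of supernatant. Nothing says that the libraries of a group came from separate mice or cultures, so p-values measure the spread between these libraries, which may be technical. Within bulk RNA, a smaller share of cells expressing a gene and less RNA per cell cannot be told apart.

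Library totals ran from 13047772 to 26966644 estimated counts, and 13513 to 16973 genes had counts. Levels are CPM, counts scaled to TMM-adjusted library sizes, separately for the libraries from mice and the cultured libraries. Summed macrophage markers (7 genes) reached 12213 to 13000 CPM in MC38 macrophages, 7946 to 9133 CPM in LLC macrophages, 7153 to 7937 CPM in MC38 TuMon1, 3217 to 3449 CPM in LLC TuMon2 and 1201 to 1766 CPM in the spleen groups. Several libraries stood apart. MC38 spleen replicates 1, 2 and 3 held fat cell markers (6 genes) at a sum of 6409 to 11241 CPM, against 21.1 CPM in replicate 4. The same 3 libraries held connective tissue markers (9 genes) at 718, 633 and 1141 CPM, against 10.5 CPM in replicate 4. Endothelial markers (5 genes) summed to 60.2 to 115 CPM there, against 10.1 CPM in replicate 4. MC38 supernatant replicate 3 held connective tissue markers (9 genes) at 3170 CPM, against 1.67 and 2.44 CPM in the other 2 libraries of its group. Control culture replicate 2 held 67.5 CPM of the same connective tissue markers, against 2.65 to 4.83 CPM in the other 3 control libraries. Most of that sum was Col6a1 (30.8 CPM) and Col1a1 (25.6 CPM), with Lum at 0. The same library held epithelial markers (5 genes) at 85.9 CPM, against 0.161 to 0.732 CPM in the other 3, with Krt19 at 39.8 CPM and Krt8 at 34.2 CPM.

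Of the 9 genes, 1 was higher and 5 were lower in MC38 than in LLC macrophages, where 22.4% of all 13200 genes tested were called higher and 22.9% lower (edgeR quasi-likelihood test, Benjamini-Hochberg adjusted p under 0.05, also below). Against spleen monocytes of the same model, 5 rose and 3 fell in MC38 macrophages (35.6% of all genes called higher and 36.3% lower) and 7 rose and 2 fell in LLC macrophages (33.1% and 31.5%). Against tumor monocytes, macrophages were higher in 2 and lower in 3 of the 9 genes in MC38 tumors (24.8% and 27.9% of all genes) and higher in 2 and lower in 2 in LLC tumors (29.2% and 26.3%). Tumor monocytes against spleen monocytes gave 6 higher and 3 lower in MC38 (33.5% and 36.6% of all genes) and 7 higher and 1 lower in LLC (28.6% and 34%). As a description, MC38 TuMon1 libraries lay above all LLC TuMon2 libraries for 3 of the 9 genes and below them for 5, as 27.9% and 23.3% of all genes did. Large shares of all genes were thus called in every one of these comparisons, and the 9 genes' counts are read beside them. The median log2 difference of the 9 genes was 4.03 in MC38 and 4.36 in LLC macrophages against spleen monocytes, beside medians of -0.01 and 0.03 over all genes tested.

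Fn1 separated the tumor models more than any other of the 9 genes. It lies on chromosome 1 at positions 71585473 to 71653280 of GRCm38. In MC38 macrophages it measured 262, 269, 208 and 319 CPM, against 10272, 11680, 10115 and 10160 CPM in LLC macrophages. The groups lay far apart, 39.9-fold, a log2 difference of -5.32 ± 0.13 (SE, n = 4 each, edgeR adjusted p = 2.71e-19). In tumor monocytes, as a description, Fn1 measured 491, 406, 483 and 527 CPM in MC38 TuMon1, against 11273, 11764, 11942 and 9094 CPM in LLC TuMon2, again with no overlap. Within MC38 tumors macrophages were below monocytes by 0.85 ± 0.11 on the log2 scale (adjusted p = 7.36e-07). Within LLC tumors the difference was -0.06 ± 0.11 (adjusted p = 0.662), and macrophage and monocyte libraries overlapped.

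Spleen monocytes held Fn1 between these extremes, so that the models moved in opposite directions from it. The MC38 spleen libraries measured 2487, 2814, 2424 and 3101 CPM, and the LLC spleen libraries 4283, 4164, 3681 and 3762 CPM. From these levels Fn1 fell in MC38 macrophages (10.2-fold, log2 -3.35 ± 0.12, adjusted p = 1.6e-17) and rose in LLC macrophages (2.66-fold, log2 1.41 ± 0.11, adjusted p = 7.58e-11). The difference between these differences was -4.76 ± 0.17 on the log2 scale (adjusted p = 5.32e-16). Tumor monocytes did likewise, with log2 differences from spleen of -2.51 ± 0.12 in MC38 TuMon1 (adjusted p = 1.86e-15) and 1.47 ± 0.11 in LLC TuMon2 (adjusted p = 3.69e-11). These comparisons share the spleen libraries of each model. Connective tissue markers summed to 28.8 to 33.9 CPM in MC38 macrophages, where Fn1 was lower, and 14.1 to 22.2 CPM in LLC macrophages. Epithelial markers summed to 5.5 to 8.08 CPM in MC38 macrophages, against 91.6 to 144 CPM in LLC macrophages, and to 41.3 to 65.6 CPM in LLC TuMon2. Epcam was at 0 in every LLC macrophage library and Krt19 at 0 in both LLC groups. Nearly all of the LLC sum was Cdh1, E-cadherin, at 89.2 to 139.9 CPM in LLC macrophages. Its part in the Fn1 level was not tested.

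**Figure D1:**
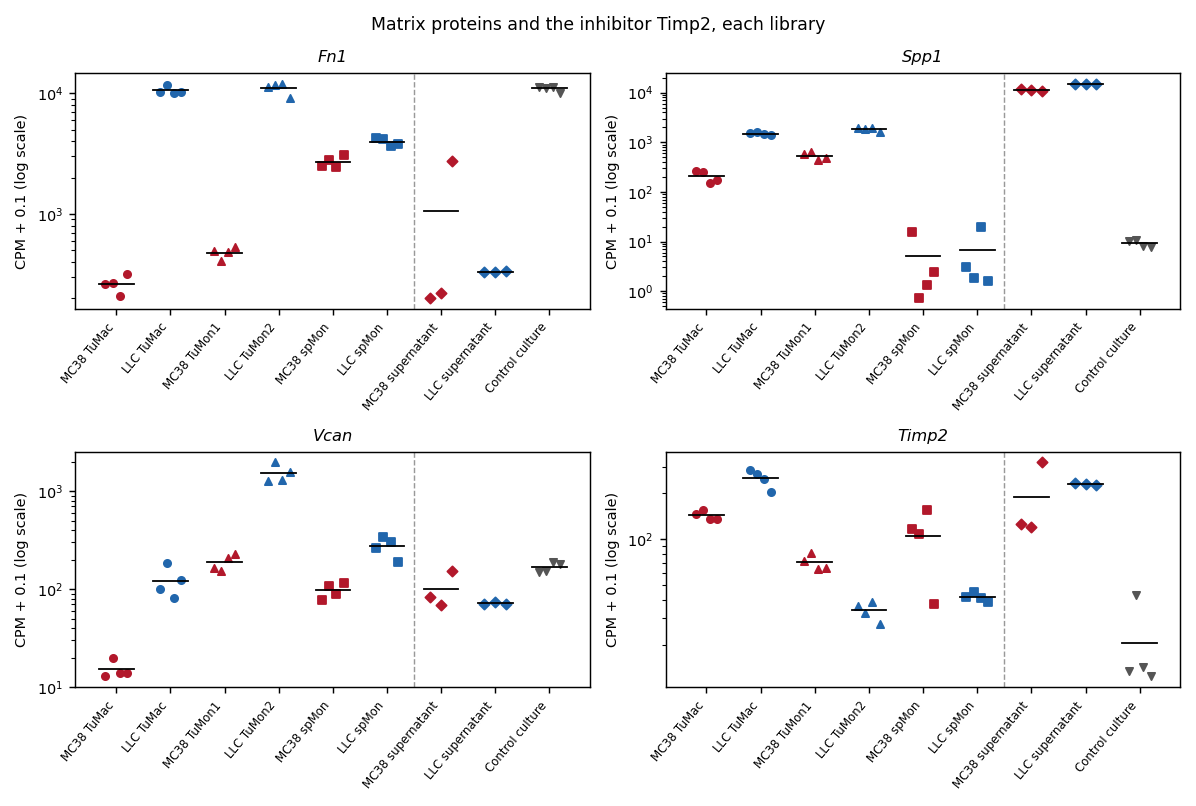
Levels of Fn1, Spp1, Vcan and Timp2 in each of the 34 libraries, as CPM + 0.1 on a log scale; points are libraries, black bars group means, red MC38, blue LLC, grey untreated culture, and the dashed line parts libraries from mice (left) from cultured monocytes (right). Fn1 lies between 208 and 319 CPM in MC38 macrophages and at or above 10115 CPM in LLC macrophages, while Spp1 is at most 19.9 CPM in every spleen library and at least 10823 CPM in every supernatant library.

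In culture Fn1 fell with either supernatant. With MC38 supernatant it measured 200.3 and 222 CPM in replicates 1 and 2 and 2736 CPM in replicate 3, the library with connective tissue transcripts. With LLC supernatant it measured 329, 328 and 334 CPM, against 11343, 11049, 11365 and 10054 CPM in untreated monocytes. Every supernatant library lay below every control library. The log2 difference from control was -3.38 ± 0.97 with MC38 supernatant (adjusted p = 0.015) and -5.05 ± 1.1 with LLC supernatant (adjusted p = 0.00317). Without MC38 supernatant replicate 3 the MC38 difference was -5.69 (adjusted p = 1.28e-11), and the mean was 211 ± 15.4 CPM (SD, n = 2). As a description, Fn1 was thus 1.67 higher on the log2 scale with MC38 than with LLC supernatant over all libraries and 0.64 lower without replicate 3, so that this library sets the sign.

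Spp1 (chromosome 5, 104435111 to 104441053) was low in spleen and high in every tumor group. It measured 267, 255, 151 and 175 CPM in MC38 macrophages and 1555, 1585, 1483 and 1374 CPM in LLC macrophages, against 0.62 to 15.8 CPM in MC38 spleen and 1.54 to 19.9 CPM in LLC spleen. No tumor library overlapped a spleen library. Spp1 rose 42.6-fold in MC38 macrophages (log2 5.48 ± 0.85, adjusted p = 1.16e-05) and 229-fold in LLC macrophages (log2 7.78 ± 0.92, adjusted p = 4.77e-07). Between macrophages it was 7.07-fold lower in MC38 (log2 -2.82 ± 0.72, adjusted p = 0.0034). Tumor monocytes measured 445 to 649 CPM in MC38 TuMon1 and 1598 to 1974 CPM in LLC TuMon2. The log2 differences of macrophages from them, -1.35 ± 0.69 in MC38 and -0.3 ± 0.67 in LLC, did not pass (adjusted p = 0.111 and 0.727), though both passed where only the groups compared were fitted.

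Supernatants brought Spp1 to its highest levels. It measured 12003, 11382 and 10823 CPM with MC38 supernatant and 14897, 14985 and 14676 CPM with LLC supernatant, against 9.95, 10.8, 8.16 and 7.76 CPM in untreated monocytes. Groups did not overlap, and the rises were 1243-fold with MC38 supernatant (log2 10.28 ± 0.14, adjusted p = 9.75e-12) and 1619-fold with LLC supernatant (log2 10.67 ± 0.14, adjusted p = 1.01e-11). In each comparison of supernatant with control, 6 of the 9 genes rose and 2 fell, where 35.4% of 12603 genes tested were called higher and 32.5% lower with MC38 supernatant, and 32.3% and 36.1% with LLC supernatant. As a description, MC38 supernatant libraries lay above all LLC supernatant libraries for 3 of the 9 genes and below them for 3, as 32.5% and 27.7% of all genes did. Both comparisons use the same 4 control libraries. Spp1 was lower with MC38 than with LLC supernatant, by 0.38 on the log2 scale, and every MC38 supernatant library lay below every LLC supernatant library.

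Vcan (chromosome 13, 89655309 to 89743027) marked monocytes over macrophages in both tumors. MC38 macrophages measured 12.7, 19.8, 13.9 and 13.9 CPM, against 165, 152, 207 and 227 CPM in MC38 TuMon1. LLC macrophages measured 99, 185, 81.9 and 123 CPM, against 1283, 1971, 1289 and 1569 CPM in LLC TuMon2. Neither pair of groups overlapped, and the log2 differences were -3.63 ± 0.26 in MC38 (12.4-fold lower, adjusted p = 5.46e-10) and -3.64 ± 0.26 in LLC (12.5-fold lower, adjusted p = 3.96e-10). In mice Vcan was lower on the MC38 side. MC38 macrophages were below LLC macrophages by 3.02 ± 0.25 on the log2 scale (adjusted p = 4.31e-09) and MC38 spleen monocytes below LLC spleen monocytes by 1.49 ± 0.24 (adjusted p = 9.35e-05). Without the 3 MC38 spleen libraries with fat transcripts, which leaves 1 library, the value between spleens was -1.23 (adjusted p = 0.36).

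From spleen, Vcan rose in tumor monocytes and fell in macrophages. In LLC TuMon2 it was 5.58-fold above LLC spleen monocytes (265, 337, 302 and 190 CPM; log2 2.48 ± 0.24, adjusted p = 1.92e-08). In MC38 TuMon1 it was 1.93-fold above MC38 spleen monocytes (log2 0.95 ± 0.23, adjusted p = 0.00126), and 0.68 without the 3 spleen libraries with fat transcripts (adjusted p = 0.179). Macrophages lay below spleen by 2.69 ± 0.25 in MC38 and by 1.16 ± 0.23 in LLC on the log2 scale (adjusted p = 6.45e-09 and 0.000209). In culture Vcan fell by 0.74 ± 0.25 with MC38 supernatant (82.4, 68.7 and 152 CPM) and by 1.24 ± 0.25 with LLC supernatant (70, 74.1 and 71.1 CPM), against 151 to 191 CPM in control (adjusted p = 0.0239 and 0.00185). The MC38 supernatant and control libraries overlapped through replicate 3. Without it the MC38 difference was -1.16 (adjusted p = 6.32e-06). The MC38 call was lost without MC38 supernatant replicate 1 (-0.59, adjusted p = 0.101) or 2 (-0.52, adjusted p = 0.0727), and without control replicate 3 (-0.66, adjusted p = 0.0597) or 4 (-0.69, adjusted p = 0.0556).

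Mmp12, Mmp13 and Mmp14 were low in spleen monocytes and untreated cultures and higher in tumors of both models. Mmp12, macrophage elastase (chromosome 9, 7344397 to 7360461), measured 91.3, 98.6, 56.3 and 84.6 CPM in MC38 macrophages and 90, 98.7, 67.4 and 121 CPM in LLC macrophages, against 0.728 to 3.89 CPM in MC38 spleen and 0.2 to 3.75 CPM in LLC spleen. The rises were 50-fold in MC38 (log2 5.71 ± 0.53, adjusted p = 9.57e-09) and 75.9-fold in LLC (log2 6.07 ± 0.54, adjusted p = 7.11e-09). Between the macrophages of the models the libraries overlapped, and Mmp12 differed by -0.19 ± 0.38 on the log2 scale (adjusted p = 0.72).

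Mmp13, collagenase-3 (chromosome 9, 7272514 to 7283333), was the only one of the 9 genes called higher in MC38 than in LLC macrophages. It measured 89.5, 89.7, 76.7 and 73.6 CPM in MC38 macrophages, against 21.1, 23.5, 17.9 and 30.7 CPM in LLC macrophages. The groups did not overlap, and the difference was 3.53-fold (log2 1.82 ± 0.45, adjusted p = 0.00267). In tumor monocytes, as a description, it measured 56.3 to 81.5 CPM in MC38 TuMon1, against 32.9 to 50.3 CPM in LLC TuMon2. Spleen libraries held 0 to 3.13 CPM. One LLC spleen library had 0 counts, which allows up to 0.213 CPM at 3 counts, for counting error only. Mmp13 rose from spleen in macrophages of MC38 (95.8-fold, log2 6.76 ± 0.65, adjusted p = 1.71e-08) and of LLC (28.1-fold, log2 4.58 ± 0.62, adjusted p = 2.59e-06).

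Mmp14 (chromosome 14, 54431598 to 54442456) was the most abundant of the 5 metalloproteinases in the tumor groups, at 66 ± 9.91 to 137 ± 8.06 CPM per kilobase of exon (SD, n = 4 each). It measured 532, 559, 528 and 445 CPM in MC38 macrophages and 493, 456, 453 and 418 CPM in LLC macrophages, with overlap and a log2 difference of 0.18 ± 0.36 (adjusted p = 0.717). Against spleen it rose 25.8-fold in MC38 (12.2 to 32 CPM in spleen; log2 4.69 ± 0.43, adjusted p = 8.37e-09) and 34.3-fold in LLC (6.41 to 31.6 CPM in spleen; log2 5.07 ± 0.44, adjusted p = 4.97e-09). As a description, MC38 TuMon1 held 750 to 860 CPM, against 309 to 437 CPM in LLC TuMon2, 2.08-fold higher with no overlap. In both tumors the macrophage to monocyte differences of Mmp12, Mmp13 and Mmp14 did not pass, with log2 values from -0.75 to 0.58, though 3 of these 6 passed where only the groups compared were fitted.

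In 2 spleen libraries these genes were high together. MC38 spleen replicate 1 held 15.8 CPM of Spp1, 3.89 CPM of Mmp12, 2.35 CPM of Mmp13 and 32 CPM of Mmp14, and LLC spleen replicate 3 held 19.9, 3.75, 3.13 and 31.6 CPM of the same genes. Each was the highest of its group for all 4 genes. The macrophage marker C1qa stood at 50.1 CPM in MC38 replicate 1, against 14.3 to 26.8 CPM in the rest of its group, and at 44 CPM in LLC replicate 3, against 2.26 to 3.07 CPM. The sum of all 7 macrophage markers was not the highest of its group in either library. It was 1682 CPM in MC38 replicate 1, against 1766 CPM in replicate 3, and 1301 CPM in LLC replicate 3, against 1412 CPM in replicate 4. Most of it was Apoe, at 1324 and 861 CPM. Like C1qa, the markers C1qb, C1qc and Mrc1 were the highest of their group in both libraries, and Mertk in LLC replicate 3. Apoe and Adgre1 were highest in neither. C1qb measured 50.5 CPM in either library, against at most 25.1 CPM in the rest of MC38 spleen and 9.78 CPM in the rest of LLC spleen. The part of macrophage transcripts in these levels was not tested. Without MC38 spleen replicate 1 the rise of MC38 macrophages over spleen was 7.34 for Spp1, 6.46 for Mmp12 and 7.99 for Mmp13 on the log2 scale (adjusted p = 2.92e-07, 1.04e-08 and 1.75e-08). Without LLC spleen replicate 3 the rise of LLC macrophages was 9.48 for Spp1, 7.74 for Mmp12, 8.2 for Mmp13 and 5.98 for Mmp14 (adjusted p = 3.68e-08, 4.08e-10, 3.91e-09 and 7.33e-14). All were larger than with every library in. Without LLC spleen replicate 3 the difference between the models in the rise from spleen became -3.99 for Spp1 (adjusted p = 0.00241), against -2.31 ± 1 with it (adjusted p = 0.0834), and Mmp13 turned to -1.43 (adjusted p = 0.406), against 2.18 ± 0.99 with it (adjusted p = 0.0838). Without MC38 spleen replicate 1 the same difference was -0.39 for Spp1 (adjusted p = 0.779) and 3.46 for Mmp13 (adjusted p = 0.0149). Against MC38 spleen replicate 4 alone it was -1.26 for Spp1 (adjusted p = 0.542) and 2.39 for Mmp13 (adjusted p = 0.275). Leaving out single other spleen libraries also gave calls, for Spp1 without MC38 replicate 2 or 3 (-2.67 and -2.66, adjusted p = 0.0417 and 0.0499) and for Mmp13 without LLC replicate 1, 2 or 4 (2.5, 2.62 and 2.52, adjusted p = 0.0478, 0.038 and 0.0418). For both genes this difference therefore turned on which spleen libraries were included.

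**Figure D2:**
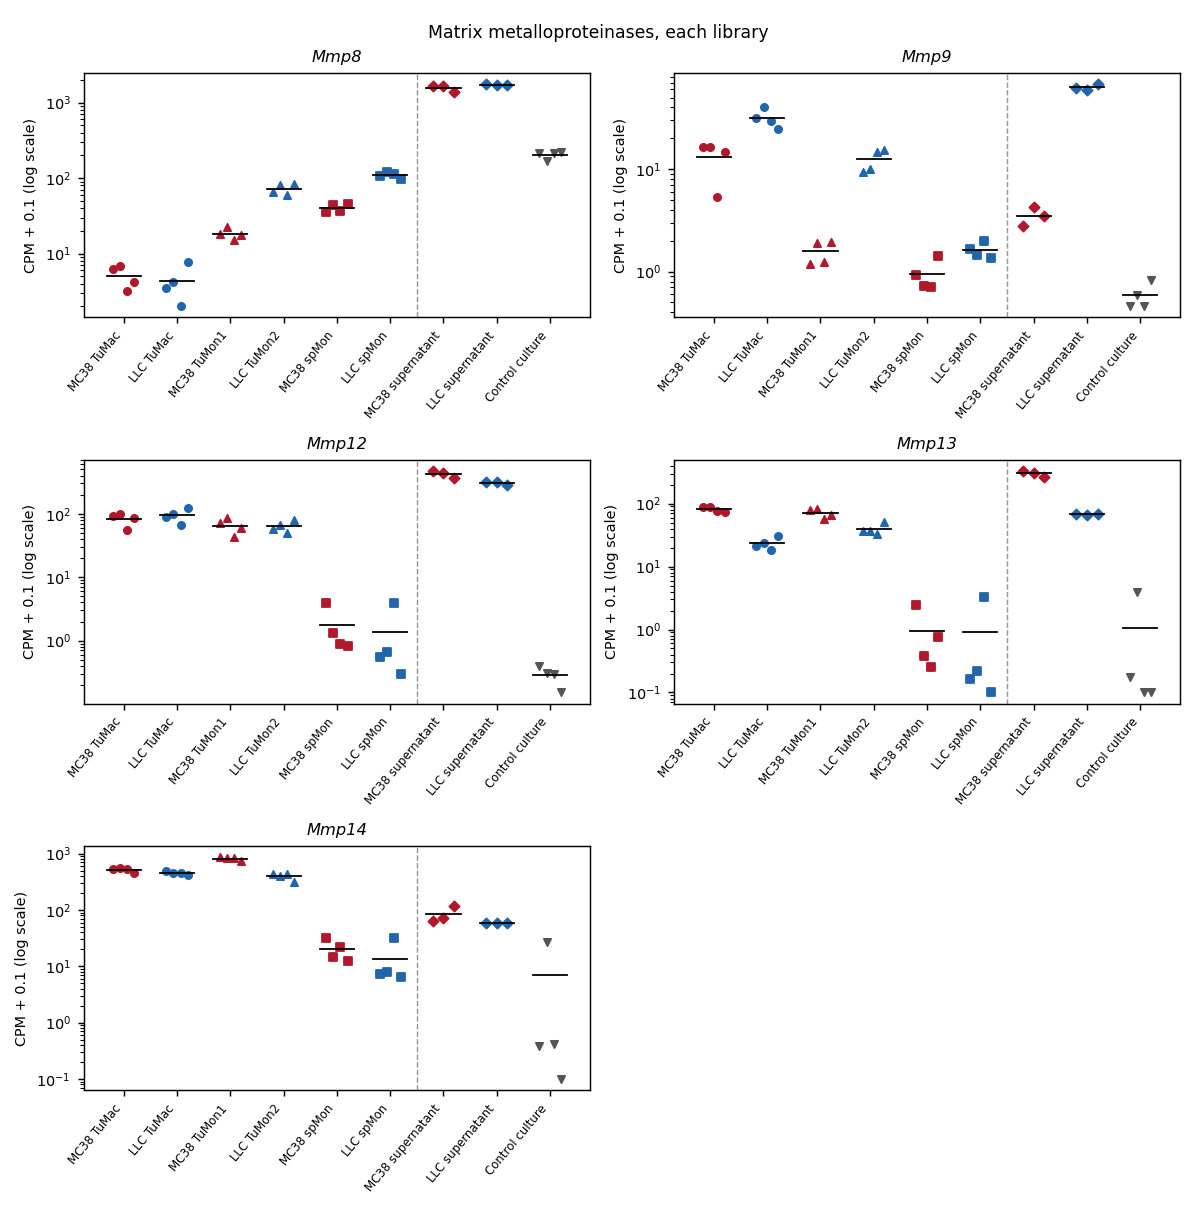
Levels of Mmp8, Mmp9, Mmp12, Mmp13 and Mmp14 in each library, as CPM + 0.1 on a log scale, with the symbols of the plot of matrix proteins. Mmp12, Mmp13 and Mmp14 lie at or below 32 CPM in every spleen and control library, Mmp9 is highest in the LLC supernatant libraries at 59.7 to 67.2 CPM, and Mmp8 is lowest in the macrophages of both tumors.

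Mmp12, Mmp13 and Mmp8 lie within 295973 bases of each other on chromosome 9, in a cluster that runs Mmp13, Mmp12, Mmp1b, Mmp3, Mmp1a, Mmp10, Mmp8, Mmp27, Mmp20 and Mmp7. Metalloproteinase promoters are known for AP-1 sites, which read TGANTCA. RefSeq windows of the GRCm38.p6 assembly were found for 7 of the 9 genes, all but Fn1 and Mmp9, and the 250 bases before each start were searched on both strands. TGANTCA was present in 6.75% of the 32851 windows of all genes, and in a window of 7.82% of the 27025 genes that have one. Among the 7 genes it was found for 2, Mmp12 and Mmp13, 44 and 35 bases before the start in 1 window each. Mmp12 has 2 windows, and the one before the gene's annotated start held no match. It was also found for the cluster neighbors Mmp3 and Mmp10, 46 and 63 bases before the start. No match was found in the Mmp8 or Mmp27 window. Of the cluster, Mmp1a, Mmp1b, Mmp20 and Mmp7 were not looked up singly. The PU.1-type letters AGGAAG (29.5% of windows) and the RUNX-type letters AACCACA (4.4%), neither of which overlapped TGANTCA, were both found for Spp1 and Mmp13. A match describes letters, not a bound site. The 120 bases before 5 starts of the cluster, all on the plus strand, are shown so that windows with and without the letters can be compared. Whether the letters go with the levels was not tested. Mmp3 and Mmp10, named here after their values were seen, hold a match and reached at most 3.36 and 0.467 CPM in any tumor library. Mmp3 measured 0 CPM in every LLC spleen library and 1.32 to 3.36 CPM in LLC tumor libraries, while MC38 spleen and tumor libraries overlapped. Mmp10 measured 1.54 to 2.81 CPM with MC38 supernatant, 0.119 to 0.555 CPM with LLC supernatant and 0 to 0.283 CPM in control. Spp1, Vcan, Mmp8, Mmp14, Timp2 and Mmp27 have no match in the 250 bases. From spleen to tumor Spp1 and Mmp14 rose and Mmp8 fell. With both supernatants Spp1, Mmp8, Timp2 and Mmp27 rose and Vcan fell. Genes with and without a match were not compared by a test. Capitals mark TGANTCA.
Mmp13, chr9:7272394-7272513: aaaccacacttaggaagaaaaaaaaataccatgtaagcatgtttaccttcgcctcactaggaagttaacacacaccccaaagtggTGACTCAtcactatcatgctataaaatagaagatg
Mmp12 (second start), chr9:7347254-7347373: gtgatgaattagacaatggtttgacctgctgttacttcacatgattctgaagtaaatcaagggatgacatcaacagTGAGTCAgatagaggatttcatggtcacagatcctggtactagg
Mmp3, chr9:7445702-7445821: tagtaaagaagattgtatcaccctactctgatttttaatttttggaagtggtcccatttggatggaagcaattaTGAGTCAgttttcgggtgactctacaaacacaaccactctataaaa
Mmp10, chr9:7502222-7502341: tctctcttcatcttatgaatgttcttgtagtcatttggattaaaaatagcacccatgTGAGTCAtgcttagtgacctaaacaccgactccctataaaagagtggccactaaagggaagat
Mmp8, chr9:7558309-7558428: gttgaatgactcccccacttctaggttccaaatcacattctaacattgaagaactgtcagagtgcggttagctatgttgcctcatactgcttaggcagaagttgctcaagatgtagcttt

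Mmp12 and Mmp13 also rose in culture with either supernatant. Mmp12 measured 475, 445 and 364 CPM with MC38 supernatant and 312, 313 and 284 CPM with LLC supernatant, against 0.293, 0.212, 0.201 and 0.0525 CPM in control. The rises were 2256-fold (log2 11.04 ± 0.21, adjusted p = 4.98e-11) and 1598-fold (log2 10.54 ± 0.21, adjusted p = 6.75e-11). Mmp13 measured 331, 309 and 266 CPM with MC38 supernatant and 68.7, 65.5 and 68.5 CPM with LLC supernatant. Control libraries held 0.0732, 0 and 0 CPM, and 3.82 CPM in replicate 2, with floors of 0.126 and 0.167 CPM for the libraries at 0. Every supernatant library lay above every control library. The log2 differences were 8.71 ± 0.99 (adjusted p = 9.56e-05) and 6.55 ± 0.96 (adjusted p = 0.000423). Without control replicate 2 they were 13.14 and 10.98 (adjusted p = 1.24e-10 and 4.85e-10), fitted values that depend on the prior count because the control libraries left hold 2 counts. As a description, Mmp13 was 4.47-fold higher with MC38 than with LLC supernatant, with no overlap.

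Mmp14 did not pass with either supernatant, a result that turned on 1 control library. It measured 64.3, 72.1 and 119 CPM with MC38 supernatant and 58.3, 59.5 and 58.6 CPM with LLC supernatant, against 0.293, 26.6, 0.322 and 0 CPM in control. All supernatant libraries lay above all control libraries, but the differences of 3.77 ± 1.5 and 3.23 ± 1.5 on the log2 scale did not pass (adjusted p = 0.0525 and 0.0826). Without control replicate 2, which also held the highest Mmp13 and Timp2 of its group, Mmp14 was higher by 8.54 with MC38 supernatant (adjusted p = 9.84e-07) and by 8 with LLC supernatant (adjusted p = 1.45e-06). That library held 67.5 CPM of connective tissue markers and 85.9 CPM of epithelial markers, and their part in the Mmp14 level was not tested.

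Mmp9, gelatinase B (chromosome 2, 164940326 to 164955850), was the metalloproteinase that macrophages held above monocytes in both tumors. MC38 macrophages measured 16.4, 16.2, 5.26 and 14.6 CPM, against 1.08, 1.82, 1.15 and 1.87 CPM in MC38 TuMon1. LLC macrophages measured 31.7, 40.2, 29.5 and 24.4 CPM, against 9.33, 9.98, 14.7 and 15.3 CPM in LLC TuMon2. Neither pair overlapped, and the log2 differences were 3.15 ± 0.31 in MC38 (adjusted p = 2.29e-08) and 1.35 ± 0.27 in LLC (adjusted p = 0.000194). MC38 macrophages were 2.4-fold below LLC macrophages (log2 -1.25 ± 0.26, adjusted p = 0.000461). Spleen libraries held 0.6 to 1.9 CPM, and the rises to macrophages were 4.03 ± 0.34 in MC38 and 4.36 ± 0.32 in LLC on the log2 scale (adjusted p = 3.91e-10 and 5.57e-11), and 3.31 in MC38 against spleen replicate 4 alone (adjusted p = 0.00023). MC38 TuMon1 stood 0.88 ± 0.38 above MC38 spleen monocytes (adjusted p = 0.0452) with overlapping libraries, and 0.16 without the spleen libraries with fat transcripts (adjusted p = 0.876).

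In culture Mmp9 differed between the supernatants by more than any other of the 9 genes. It measured 2.72, 4.16 and 3.39 CPM with MC38 supernatant and 62, 59.7 and 67.2 CPM with LLC supernatant, against 0.366, 0.495, 0.362 and 0.734 CPM in control. It rose 7-fold with MC38 supernatant (log2 2.83 ± 0.22, adjusted p = 1.2e-06) and 129-fold with LLC supernatant (log2 7.03 ± 0.23, adjusted p = 1.5e-09). As a description, Mmp9 was 18.4-fold lower with MC38 than with LLC supernatant. MC38 libraries lay below LLC libraries in macrophages, in tumor monocytes (1.48 ± 0.42 against 12.3 ± 3.11 CPM, SD, n = 4 each) and in cultures. The contrasts in tumor monocytes and cultures are those by which the genes were chosen, so their direction is not an independent result.

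Mmp8, known as neutrophil collagenase (chromosome 9, 7558429 to 7568486), was lower in tumor macrophages than in spleen monocytes, opposite to the other 4 metalloproteinases. It measured 6.09, 6.72, 3.11 and 4.11 CPM in MC38 macrophages and 3.39, 4.14, 1.92 and 7.56 CPM in LLC macrophages, against 35.8 to 45.8 CPM in MC38 spleen and 95.9 to 122 CPM in LLC spleen. It fell 8.07-fold in MC38 macrophages (log2 -2.99 ± 0.26, adjusted p = 1.81e-09) and 25.7-fold in LLC macrophages (log2 -4.7 ± 0.28, adjusted p = 5.81e-12). Macrophages were also below tumor monocytes, which held 15 to 22.2 CPM in MC38 TuMon1 and 58.8 to 83.5 CPM in LLC TuMon2, by 1.84 ± 0.26 and 4.1 ± 0.27 on the log2 scale (adjusted p = 4.63e-06 and 1.68e-10). Between the macrophages of the models Mmp8 overlapped and did not pass (log2 0.27 ± 0.28, adjusted p = 0.465), though it was higher in MC38 by 0.67 without LLC macrophage replicate 4 (adjusted p = 0.0382).

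The sum of the neutrophil markers (8 genes) was low in both tumors. It was 6.3 to 8.06 CPM in MC38 macrophages and 5.29 to 10.1 CPM in LLC macrophages, against 745 to 3362 CPM in MC38 spleen and 2851 to 4644 CPM in LLC spleen. Most of the spleen sum was S100a8, S100a9, Ngp, Camp and Ltf. MC38 spleen replicate 4 held 3362 CPM of these markers and 45.8 CPM of Mmp8, against at most 903 CPM of markers and 35.8 to 43.4 CPM of Mmp8 in the other 3. In tumor monocytes the marker sum was low as well, while Mmp8 stayed closer to its spleen level than in macrophages. Single markers did not all follow the sum. Ly6g measured 4.43 to 6.7 CPM in MC38 TuMon1, against 1.84 to 4.43 CPM in MC38 spleen. Cxcr2 measured 5.3 to 7.55 CPM in LLC TuMon2, against 4.85 to 8.28 CPM in LLC spleen. MC38 TuMon1 held 12.4 to 17.4 CPM of markers and 15 to 22.2 CPM of Mmp8, which was lower than in spleen by 1.14 ± 0.23 on the log2 scale (adjusted p = 0.000214). LLC TuMon2 held 22.9 to 39 CPM of markers and 58.8 to 83.5 CPM of Mmp8, lower by 0.6 ± 0.22 (adjusted p = 0.0253), a call lost without TuMon2 replicate 1 or 3 (-0.58 and -0.53, adjusted p = 0.0659 and 0.0835) or LLC spleen replicate 2 or 3 (-0.54 and -0.58, adjusted p = 0.0714 and 0.0566). The markers' part in the Mmp8 level was not tested. In culture the marker sum was lower where Mmp8 was higher. Retnlg, among the 8 markers, measured 1.28 to 2.535 CPM with MC38 supernatant, against 0.141 to 0.997 CPM in control. Mmp8 measured 1642, 1648 and 1375 CPM with MC38 supernatant and 1748, 1702 and 1694 CPM with LLC supernatant, against 214, 167, 217 and 218 CPM in control. It rose by 2.93 ± 0.11 and 3.07 ± 0.11 on the log2 scale (adjusted p = 3.07e-09 and 2.32e-09), while the marker sum was 106 to 141 CPM with MC38 supernatant and 6.58 to 20.1 CPM with LLC supernatant, against 971 to 1352 CPM in control.

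**Figure D3:**
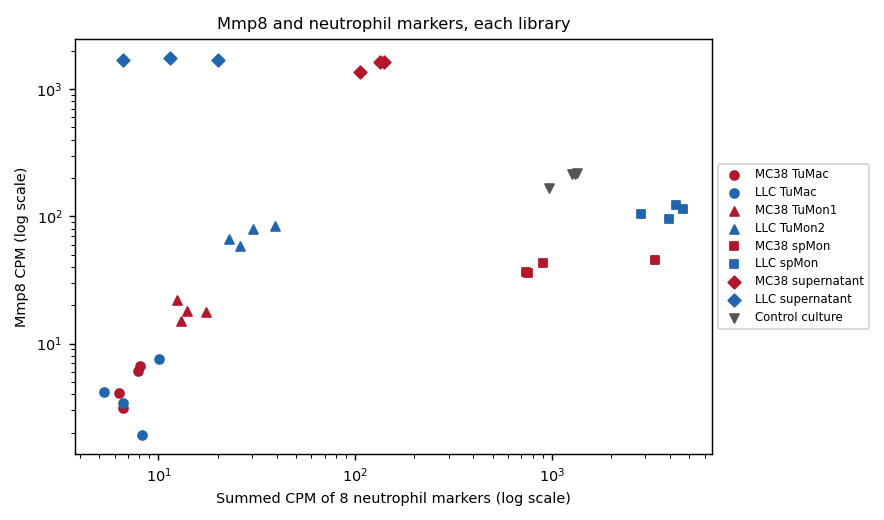
Mmp8 CPM against the summed CPM of 8 neutrophil markers in each library, both on log scales; red MC38, blue LLC, grey untreated culture, with symbols for cell group. The supernatant libraries have the highest Mmp8, 1375 to 1748 CPM, at marker sums of 6.58 to 141 CPM, while untreated cultures have 167 to 218 CPM of Mmp8 at marker sums of 971 to 1352 CPM.

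Timp2 (chromosome 11, 118301061 to 118355411) was higher in macrophages than in monocytes of either tumor. MC38 macrophages measured 146, 156, 136 and 135 CPM, against 71.2, 81.1, 63.6 and 64.5 CPM in MC38 TuMon1. LLC macrophages measured 287, 268, 249 and 204 CPM, against 36.4, 32.6, 38.7 and 27.5 CPM in LLC TuMon2. Neither pair overlapped, with log2 differences of 1.03 ± 0.25 in MC38 (adjusted p = 0.00184) and 2.9 ± 0.27 in LLC (adjusted p = 2.79e-08). Macrophages of MC38 held less than those of LLC (log2 -0.81 ± 0.25, adjusted p = 0.0116), whereas, as a description, MC38 TuMon1 held more than LLC TuMon2 (2.08-fold, no overlap).

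The spleen comparison of Timp2 in MC38 rested on 3 libraries. MC38 spleen replicates 1, 2 and 3 are those with fat cell and connective tissue transcripts. They measured 116, 108 and 155 CPM, against 37.2 CPM in replicate 4 and 38.4 to 44.7 CPM in LLC spleen. The part of these transcripts in the Timp2 level was not tested. With all libraries the MC38 macrophages stood 0.46 ± 0.25 above spleen on the log2 scale (adjusted p = 0.106) and MC38 TuMon1 0.57 ± 0.25 below it (adjusted p = 0.0486). Against replicate 4 alone, assumed to vary like the other groups, MC38 macrophages were higher by 1.94 (adjusted p = 3.04e-09), and MC38 TuMon1 turned to 0.91 higher (adjusted p = 0.00011). LLC macrophages were 6.08-fold above LLC spleen (log2 2.6 ± 0.27, adjusted p = 4.18e-08). In culture Timp2 measured 125, 120 and 320.1 CPM with MC38 supernatant and 234, 229 and 228 CPM with LLC supernatant, against 12.4 to 14.3 CPM in 3 control libraries and 42.6 CPM in replicate 2. The log2 rises were 3.21 ± 0.55 and 3.5 ± 0.55 (adjusted p = 0.000957 and 0.000594). Without control replicate 2 they were 3.81 and 4.1 (adjusted p = 0.000127 and 8.61e-05), and without MC38 supernatant replicate 3 the MC38 rise was 2.61 (adjusted p = 0.00278).

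**Figure D4:**
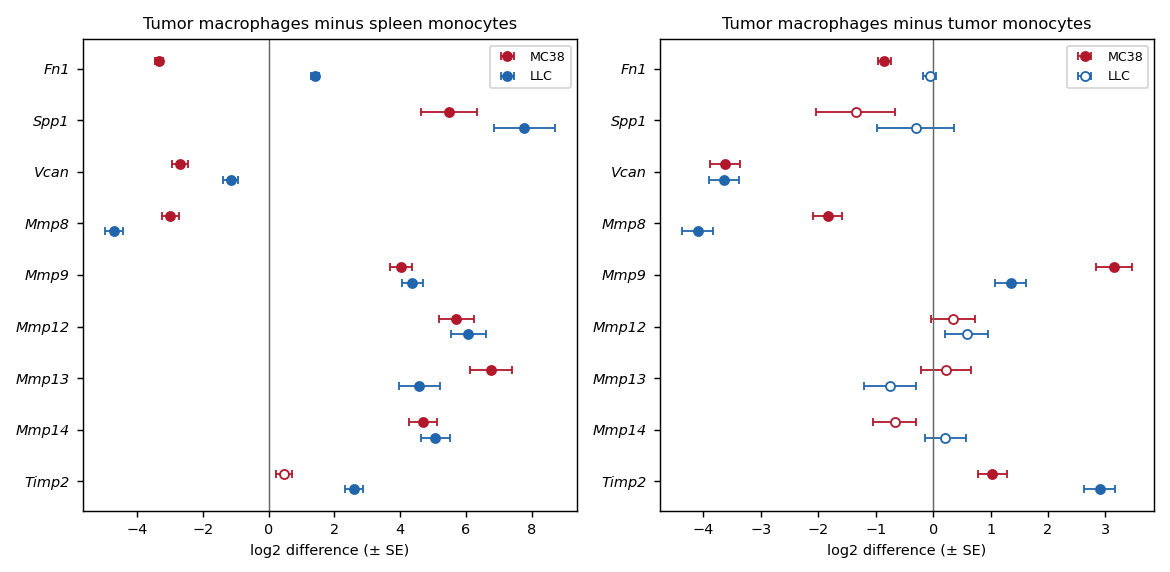
Log2 difference ± SE of each gene in tumor macrophages minus spleen monocytes (left) and minus tumor monocytes (right), for MC38 (red) and LLC (blue); filled points passed an adjusted p of 0.05 and open points did not. Fn1 lies at -3.35 in MC38 and at 1.41 in LLC on the left, and Vcan lies at -3.63 and -3.64 on the right.

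The rise or fall from spleen differed between the models for 4 of the 9 genes, 1 higher and 3 lower in MC38, where 21.4% and 22.3% of all genes were called. Beside Fn1, MC38 was below LLC in this difference for Vcan (log2 -1.52 ± 0.33, adjusted p = 0.000996) and Timp2 (-2.14 ± 0.36, adjusted p = 7.4e-05), and above it for Mmp8 (1.71 ± 0.36, adjusted p = 0.000727), which fell less in MC38. Against MC38 spleen replicate 4 alone the Timp2 value was -0.66 (adjusted p = 0.0131). For Mmp9, Mmp12 and Mmp14 the values lay between -0.39 and -0.33 and did not pass with all libraries. Without LLC spleen replicate 3, Mmp12 (-2.02, adjusted p = 0.0476) and Mmp14 (-1.28, adjusted p = 0.0016) passed, whereas against MC38 spleen replicate 4 alone both turned positive and did not pass (0.76 and 0.34, adjusted p = 0.771 and 0.792). MC38 and LLC spleen monocytes themselves differed in 4 genes, 1 higher and 3 lower in MC38 (14.4% and 14% of all genes): Fn1 (-0.55 ± 0.11, adjusted p = 0.000524), Vcan, Mmp8 (-1.44 ± 0.23, adjusted p = 9.52e-05) and Timp2 (1.33 ± 0.26, adjusted p = 0.000572), with Vcan as given above. Against MC38 replicate 4 alone none of the 4 passed: the values were -0.35 for Fn1, -1.23 for Vcan, -1.25 for Mmp8 and -0.15 for Timp2 (adjusted p = 0.589, 0.36, 0.278 and 0.897). With 1 library on that side 0.159% of 13802 genes tested passed, 6 higher and 16 lower, so missing the threshold there says little about a gene.

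Per kilobase of exon, the genes changed rank between groups. Spp1 was the most abundant of the 9 genes in each tumor group, from 129 ± 35.1 CPM per kilobase in MC38 macrophages to 1124 ± 105 CPM per kilobase in LLC TuMon2 (SD, n = 4 each), and in both supernatant groups, at 6919 ± 358 and 9013 ± 96.4 CPM per kilobase (n = 3 each). Fn1 led in both spleen groups, at 232 ± 26.8 and 340 ± 25.3 CPM per kilobase, and in untreated culture, at 937 ± 52.8 CPM per kilobase (n = 4 each). In LLC macrophages both stood side by side at 910 ± 57.1 CPM per kilobase for Spp1 and 903 ± 64.3 CPM per kilobase for Fn1, within their spread.

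**Figure D5:**
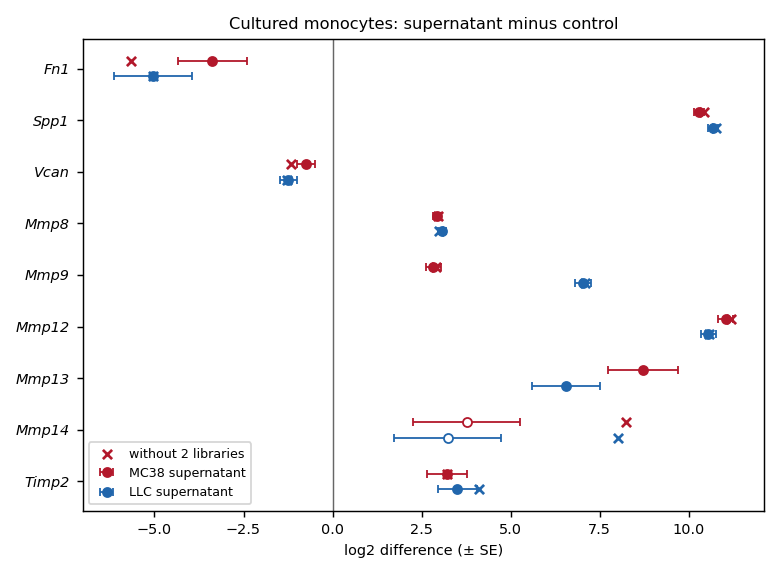
Log2 difference ± SE of each gene in monocytes cultured with MC38 (red) or LLC (blue) supernatant minus untreated monocytes; filled points passed an adjusted p of 0.05, open points did not, and crosses give the fit without MC38 supernatant replicate 3 and control replicate 2. Mmp14 moves from 3.77 and 3.23 to 8.24 and 8.01 without these libraries, and no cross is drawn for Mmp13, for which the control libraries left hold 2 counts.

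Other genes of matrix turnover were read from 6 lists, chosen with earlier results known. Of 15 other metalloproteinases 8 were tested in the animals, and 4 were higher and 3 lower in MC38 than in LLC macrophages (22.4% and 22.9% of all genes). Among them Mmp25 averaged 22.9 ± 0.78 CPM in MC38 and 4.68 ± 2.56 CPM in LLC macrophages (log2 2.3 ± 0.32, adjusted p = 5.04e-06). Mmp19 averaged 44.3 ± 7.25 and 74.8 ± 15.9 CPM (-0.75 ± 0.16, adjusted p = 0.000507). In culture Mmp27, which lies next to Mmp8, averaged 157 ± 25.1 CPM with MC38 supernatant and 171 ± 8.91 CPM with LLC supernatant, against 0.125 ± 0.0843 CPM in control (adjusted p = 3.01e-10 and 2.52e-10). In macrophages it averaged 1.59 ± 0.666 CPM in MC38 and 0.0539 ± 0.0669 CPM in LLC, and the higher MC38 value passed the test (log2 4.55 ± 0.8, adjusted p = 4.6e-05).

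Of 9 protease inhibitors other than Timp2, 8 were tested, with 1 higher and 2 lower in MC38 than in LLC macrophages (22.4% and 22.9% of all genes). Timp1 averaged 3.9 ± 0.594 CPM in MC38 and 21.4 ± 4.38 CPM in LLC macrophages (log2 -2.45 ± 0.38, adjusted p = 2.02e-05). Slpi, an inhibitor of leukocyte elastase, averaged 7.33 ± 2.27 CPM in LLC macrophages, against 291 ± 31.3 CPM in LLC TuMon2 (-5.32 ± 0.22, adjusted p = 4.53e-14). In MC38 it averaged 3.26 ± 0.906 CPM in macrophages, against 45.7 ± 12.7 CPM in TuMon1 (-3.8 ± 0.22, adjusted p = 9.46e-12). Slpi was thus lower in macrophages than in monocytes of both tumors, as were Vcan and Mmp8.

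Of 13 receptors for fibronectin, osteopontin and hyaluronan, 12 were tested. Of these, 2 were higher and 7 lower in MC38 than in LLC macrophages (22.4% and 22.9% of all genes). Cd44, a receptor for hyaluronan and osteopontin, averaged 455 ± 23.1 CPM in MC38 and 820 ± 83.1 CPM in LLC macrophages (log2 -0.85 ± 0.095, adjusted p = 5.82e-08). Itga9, an integrin subunit that binds osteopontin, averaged 206 ± 19.1 CPM in MC38 and 82.7 ± 4.97 CPM in LLC macrophages (1.32 ± 0.26, adjusted p = 0.000351). It rose from spleen by 5.5 ± 0.33 in MC38 and by 4.9 ± 0.34 in LLC macrophages (adjusted p = 9.19e-12 and 1.11e-10). Itga4, which pairs with Itgb1 to bind fibronectin, fell by 3.37 ± 0.16 and 2.92 ± 0.16 in the same comparisons (adjusted p = 7.7e-15 and 1.27e-13), and Itgb3 fell by 4.49 ± 0.19 and 3.47 ± 0.18 (adjusted p = 1.84e-16 and 1.7e-14). Against MC38 spleen replicate 4 alone the MC38 values were 6.39 for Itga9, -3.79 for Itga4 and -4.63 for Itgb3 (adjusted p = 1.25e-07, 3.28e-14 and 2.46e-15).

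In culture 11 receptors were tested. With MC38 supernatant 6 rose and 3 fell, where 35.4% of all genes were called higher and 32.5% lower. With LLC supernatant 6 rose and 3 fell (32.3% and 36.1% of all genes). The MC38 counts were again 6 and 3 without MC38 supernatant replicate 3, a fit added for the lists after the data were seen. In that fit 66.4% of all genes were called either way. Without control replicate 2 the receptor counts were 7 and 4 with MC38 and 7 and 3 with LLC supernatant (74.2% and 74% of all genes called either way). Itgav and Itgb5, subunits of vitronectin and osteopontin receptors, rose by 2.46 ± 0.081 and 2.91 ± 0.072 with MC38 supernatant (adjusted p = 1.58e-09 and 2.5e-10) and by 1.42 ± 0.08 and 2.67 ± 0.071 with LLC supernatant (adjusted p = 8.53e-08 and 3.77e-10). Itga4 and Itgb3 fell by 2.12 ± 0.15 and 4.17 ± 0.41 with MC38 supernatant (adjusted p = 7.11e-07 and 2.42e-05) and by 2.05 ± 0.15 and 1.56 ± 0.36 with LLC supernatant (adjusted p = 9.24e-07 and 0.00414). Itgb3 measured 2.54, 2.81 and 8.56 CPM with MC38 supernatant, the highest in replicate 3, and its MC38 difference without that library was -4.97 (adjusted p = 8.95e-11).

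Of 15 ADAM and ADAMTS proteases 11 were tested, with 1 higher and 5 lower in MC38 than in LLC macrophages (22.4% and 22.9% of all genes). Adam8, a protease of myeloid cells, averaged 644 ± 95.2 CPM in MC38 macrophages, against 26.3 ± 11.5 CPM in spleen (log2 4.62 ± 0.33, adjusted p = 1.79e-10), and 672 ± 119 CPM in LLC macrophages, against 42 ± 23.2 CPM in spleen (4 ± 0.32, adjusted p = 1.46e-09). Adam15 averaged 189 ± 9.72 CPM in MC38 and 489 ± 18.7 CPM in LLC macrophages (-1.37 ± 0.071, adjusted p = 7.9e-14). Of 10 crosslinking and collagen processing genes tested among 11, 2 were higher and 3 lower in MC38 macrophages, beside the same shares of all genes. F13a1, a transglutaminase of plasma and monocytes, averaged 66 ± 8.23 CPM in MC38 and 297 ± 56.8 CPM in LLC macrophages (-2.17 ± 0.14, adjusted p = 3.47e-12). Like Vcan it was below tumor monocytes in both models, by 1.26 ± 0.13 and 1.81 ± 0.14 (adjusted p = 3.1e-08 and 1.05e-10).

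Most of the matricellular and proteoglycan genes tested in culture rose. Of 23 such genes 13 were tested there. With all libraries 11 rose with MC38 supernatant and 0 fell (35.4% and 32.5% of all genes), and with LLC supernatant 9 rose and 1 fell (32.3% and 36.1%). Without MC38 supernatant replicate 3 the MC38 counts were 10 higher, 9 of them among the 11, and 1 lower, Emilin1 (log2 -0.36, adjusted p = 0.00196). In that fit 66.4% of all genes were called either way. The 2 rises lost were those of Sparc and Bgn, matrix proteins of connective tissue, named, like Emilin1, after their values were seen. Sparc measured 0.498, 0.271 and 777 CPM with MC38 supernatant, the last in replicate 3, against 1.83, 12.8, 0.845 and 0.892 CPM in control. Bgn, biglycan, measured 0.272, 0.0905 and 477 CPM with MC38 supernatant, against 0.161 to 0.848 CPM in control. Their log2 differences with all libraries, 6.13 for Sparc and 8.42 for Bgn, turned to -3.37 and -1.34 without replicate 3 (adjusted p = 0.0747 and 0.38). Gpnmb averaged 7060 ± 560 CPM with MC38 supernatant and 15591 ± 234 CPM with LLC supernatant, against 6.69 ± 1.35 CPM in control (adjusted p = 1.83e-11 and 1.47e-11). Thbs1, thrombospondin-1, averaged 2864 ± 80.7 CPM with MC38 supernatant and 1510 ± 33.5 CPM with LLC supernatant, against 65.9 ± 7.18 CPM in control (adjusted p = 2.22e-11 and 6.54e-11). The list's median log2 difference was 3.36 with MC38 and 1.52 with LLC supernatant, beside 0.05 and -0.07 over all genes tested. Without MC38 supernatant replicate 3 the MC38 median was 0.95, beside -0.02 over all genes. In macrophages 3 rose above and 5 fell below LLC in MC38, of 18 tested (22.4% and 22.9% of all genes). Gpnmb stood at 33.5 ± 11.8 CPM in MC38 and 6.56 ± 4.97 CPM in LLC.

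Over the 24 libraries from mice, the genes most like each of the 9 were taken by Pearson's r of log2 CPM among 9213 genes, as a description with no p. These libraries share 6 groups, so r mostly repeats the order of group means. Mmp14 ran with Plau, urokinase, a protease that generates plasmin (r = 0.994), and Spp1 with Arg1, arginase-1 (0.991). Mmp12 and Mmp13 both ran closest to C3ar1, the complement C3a receptor (0.989 and 0.987), Vcan to Notch1 (0.982), and Fn1 to Gas7 (0.968). Among the 9 genes the highest values were those of Mmp12 with Mmp14 (0.977), Mmp13 with Mmp14 (0.973) and Mmp12 with Mmp13 (0.970), and the lowest was that of Mmp8 with Timp2 (-0.863).

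Some of the 9 genes share sequence with neighbors. Mmp12 overlaps Mmp1b on the opposite strand by 157 exonic bases, but Mmp1b reached at most 0.207 CPM in any library. Fn1 overlaps the antisense gene Apol7d, at most 0.596 CPM, and Timp2 hosts Cep295nl, at most 1.28 CPM. No source states the strand setting of the counting, so reads from overlapping pairs could have been split between them.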

How the data were processed

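Sorted monocytes and macrophages were sequenced as poly(A) RNA in 34 libraries, made with a KAPA stranded mRNA kit, input 100 ng of RNA extracted in TRIzol (per the labels' protocols). The authors deposited 1 table of expected counts per gene, not scaled, with Entrez Gene IDs. In it 14.62% of values are not whole. Values were rounded, moving library totals by at most 0.000368%. CASAVA 1.8.2 and GRCm38 (mm10) are named per the submitters' processing notes, and no source used here names the aligner or counter. Groups came from the titles, since another field gives MC38 samples running numbers in the tumor's name. RefSeq (GRCm38.p6) gave symbols, for 24375 IDs, positions and promoter windows, and GENCODE gave exon lengths and overlaps.

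edgeR 4.0.16 (R 4.3.3) fitted 24 libraries from mice (13200 genes after filterByExpr) and 10 cultured libraries (12603 genes) separately, with TMM scaling, robust quasi-likelihood F-tests (2-sided) and Benjamini-Hochberg adjustment at 0.05 over all genes tested, in 11 comparisons; 2 more are described without a test. SE was taken as the absolute log2 difference divided by the root of F. Values of log2 CPM used a prior count of 2. The steps were tested on simulated counts. No pair of replicates agreed within sampling noise. The 9 genes, the lists and the alternatives were chosen with earlier results of these data known. Genes of the lists could be named if among the 3 smallest adjusted p of their list, comparison and direction and at 10 CPM or more in the higher group, and some of these are given; Mmp27 in macrophages was added after its values were seen. The alternatives were DESeq2 1.42.0, scaling by RLE or by upper quartile, a stricter filter (5 CPM in 3 libraries) or none, only the groups compared, a replicate block, the 5 libraries with foreign transcripts left out, and each library left out in turn. Whether libraries of the same number belong together was not settled, and the main tests treat them as unpaired. Correlations of their deviations ran from -0.37 to 0.41 over all comparisons. Between tumor macrophages and monocytes they ran from -0.17 to 0.18 in MC38 and from -0.15 to 0.39 in LLC. Mmp12 had the same order of replicates in macrophages and monocytes of either tumor, whereas Fn1 did not. Intervals and floors (3 counts) cover counting error only. Python 3.11.15 with pandas 2.3.3 made the tables, and matplotlib 3.10.9 drew them.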

Additional observations from a re-analysis of the deposited data

Results flagged for a closer look

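Among 63 sets of 4 libraries (9 genes in 7 groups), 13 held a library whose gap to the nearest other exceeded the 95% critical value of Dixon's test; chance flags about 1 in 20 sets. Control culture replicate 2 accounts for 4 of them, with Mmp14 at 26.6 CPM, Mmp13 at 3.82 CPM and Timp2 at 42.6 CPM above the rest and Mmp8 at 166.7 CPM below it. LLC spleen replicate 3 accounts for another 4, with Spp1 at 19.9 CPM, Mmp12 at 3.75 CPM, Mmp13 at 3.13 CPM and Mmp14 at 31.6 CPM. MC38 spleen replicate 1 stood out in Spp1 at 15.8 CPM and Mmp12 at 3.89 CPM. The rest were Fn1 in LLC macrophage replicate 2 (11680 CPM), Vcan in MC38 macrophage replicate 2 (19.8 CPM) and Mmp9 in MC38 macrophage replicate 3 (5.26 CPM).

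The difference between macrophages and spleen monocytes was unequal between the models for 4 genes by an interaction contrast, MC38 minus LLC: Fn1 at -4.76, Vcan at -1.52, Mmp8 at 1.71 and Timp2 at -2.14 on the log2 scale.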

How the results depend on the processing

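Direction and side of the threshold held in 923 of the values with a library left out and in 877 of those under other alternatives for single genes, and counts stayed within 1.5 times in 173 and 165; the rest follow or lost or gained a call (19 and 16 with a library left out, 13 and 13 otherwise). The cause was not tested. With DESeq2, which gave no adjusted p for 2 of the 9 genes in mice and 3 in culture, 0 genes were called higher in MC38 than in LLC macrophages, 3 higher in MC38 macrophages than in spleen, and 1 lower with either supernatant. Fitting only the groups compared gave 5 lower in MC38 macrophages than in TuMon1, 4 lower in LLC macrophages than in TuMon2, 2 lower in LLC TuMon2 than in spleen and 0 higher between spleens. Without the 5 libraries with foreign transcripts, 2 were lower in LLC TuMon2 than in spleen, and between spleens 0 were higher and 0 lower, with MC38 spleen replicate 4 alone assumed to vary like the other groups. At an unadjusted p under 0.05 these counts of 0 became 0 (DESeq2, macrophages, where Mmp13 got no p), 1 (edgeR, higher between spleens, only the groups compared), and 0 higher and 2 lower (edgeR, between spleens without the libraries with foreign transcripts), and DESeq2 called 1 higher and 3 lower between spleens.

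With 1 library left out, counts ranged from 1 to 2 higher in MC38 than in LLC macrophages (2 without LLC macrophage replicate 4), 0 to 1 lower in LLC TuMon2 than in spleen (0 in edgeR without TuMon2 replicate 1 or 3 or LLC spleen replicate 2 or 3, and 1 at an unadjusted p under 0.05 or in DESeq2 with every library), 1 to 3 higher between spleens and 3 to 6 lower in the difference of differences (3 and 6 without LLC spleen replicate 3), 1 to 2 higher in the same, and 1 to 2 lower with MC38 supernatant. Among directions that turned, upper quartile scaling gave Fn1 0.08 in LLC macrophages against TuMon2. Without the libraries with foreign transcripts Timp2 was 0.91 in MC38 TuMon1 against spleen, Mmp12 -0.94, Mmp14 -0.15 and Timp2 -0.15 between spleens, Mmp12 0.76 and Mmp14 0.34 in the difference of differences, and Fn1 -0.63 between supernatants. With 1 library left out, log2 values between spleens ranged from -2.44 to 1.17 for Spp1, -0.62 to 1.83 for Mmp12 and -1.63 to 3.26 for Mmp13. The difference of differences ranged from -2.02 to 0.43 for Mmp12 and -1.43 to 3.46 for Mmp13, Mmp12 between tumor monocytes from -0.11 to 0.21, and Fn1 between supernatants from -0.64 to 2.17.

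Whether replicate numbers pair the libraries was not settled. With a replicate block, Timp2 in MC38 macrophages against spleen passed (0.53, adjusted p = 0.0427), while Timp2 (-0.51, adjusted p = 0.0542) and Mmp9 (0.86, adjusted p = 0.0619) in MC38 TuMon1 against spleen did not; it changed no other call of the 9 genes. Upper quartile scaling moved the median of all genes in LLC macrophages against TuMon2 to 0.21, against 0.06, and the share of calls that were higher to 66.1%, against 52.6%. It moved that median to -0.18, against -0.04, in MC38 TuMon1 against spleen, and to 0.09, against -0.02, in MC38 macrophages against TuMon1. In MC38 macrophages against TuMon1 that share was 58.1%, against 47.1%, and between spleens 66.8%, against 50.7%. Depth limits Mmp12, Mmp13 and Mmp14 in control cultures, where libraries held few or no counts.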
